A study of Mus musculus with 16 samples.

Results

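The receptor-activated SMADs and the common SMAD are the transcription factors that carry TGFβ and BMP signals from the cell surface to the nucleus. In the mouse 6 genes encode them, of which Smad1, Smad5 and Smad9 serve the BMP arm and Smad2 and Smad3 the TGFβ arm, while Smad4 is common to both. They were taken by gene symbol from a table of FPKM values (fragments mapped to a gene, scaled to its transcript length and to the fragments mapped in the library), so 6 of the 12100 genes in the table are described here, and all 6 were present. The entries were the RefSeq mRNAs of the genes, and those of Smad2 and Smad5 were each labelled as transcript variant 1, so their values can be those of a single isoform.

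RNA was measured in 16 poly(A) libraries of mouse embryo fibroblasts (MEFs) in 4 states of the Rnf111 gene, whose product Arkadia is a ubiquitin ligase with a RING domain. They were Ark+/+ cells (WT, 4 libraries), Ark-/- cells (null, 6 libraries), and Ark-/- cells given back Arkadia by retroviral infection, either as wild type (rvWT, 3 libraries) or as the Arksim mutant (sim, 3 libraries), in which hydrophobic residues of a pair of SUMO-interacting motifs had been replaced by alanine. Cells were left untreated (0 h) or given TGFβ at 2.5 ng/ml for 1, 4 or 16 h, and all of them grew in medium with fetal bovine serum. By their names the libraries form 2 sets of 8. Set A has the WT and null cells, each at all 4 times, and set B has rvWT and sim without the 16 h time together with null cells before treatment and after 1 h. The design text speaks of 2 sequencing batches. Arkadia and EGFP were expressed together from the CAG promoter of the retrovirus, in infected populations at early passage, and the null libraries carried no retrovirus, so in rvWT and sim the effect of the virus cannot be told apart from that of Arkadia. WT and null are separate cell populations, so a difference between them cannot be told apart from a difference between the lines. No library of untreated cells was taken at 1, 4 or 16 h, so the effect of TGFβ cannot be told apart from that of time in culture. In such bulk libraries, fewer cells of a type and less RNA per cell cannot be told apart.

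Receptors of the TGFβ and activin type phosphorylate SMAD2 and SMAD3, and receptors of the BMP type phosphorylate SMAD1, SMAD5 and SMAD9 (also called SMAD8). The phosphorylated proteins join SMAD4 and enter the nucleus, where the complexes bind DNA with partner factors and raise or lower transcription. In fibroblasts TGFβ can also phosphorylate SMAD1 and SMAD5 for a short time. The pathway is controlled mainly at the level of the proteins, by phosphorylation and ubiquitination, and Arkadia is known for degrading the inhibitors SKI, SKIL (SnoN) and SMAD7. The mRNA values below say nothing of phosphorylation or protein amount.

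Of the 6 genes, Smad1, Smad3 and Smad9 are the ones whose mRNA was higher at 1 h of TGFβ than at 0 h in all 5 time series and lower at 4 h than at 1 h in all 4 series with a 4 h library. The 250 bases upstream of the annotated start of these genes are shown because they moved together. The sequences come from RefSeq (build GRCm38.p6, which is newer than the build of the files) and lie at chr8:79399429-79399678 on the minus strand for Smad1, chr9:63757995-63758244 on the minus strand for Smad3 and chr3:54755332-54755581 on the plus strand for Smad9. They are written 5′ to 3′ in the direction of the gene, and capitals mark a match to a searched SMAD motif.
Smad1: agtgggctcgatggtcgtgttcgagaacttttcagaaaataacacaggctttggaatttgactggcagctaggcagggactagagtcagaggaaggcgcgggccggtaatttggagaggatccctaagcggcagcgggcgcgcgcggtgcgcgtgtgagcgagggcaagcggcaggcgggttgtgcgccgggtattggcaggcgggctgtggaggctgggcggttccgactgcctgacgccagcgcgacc
Smad3: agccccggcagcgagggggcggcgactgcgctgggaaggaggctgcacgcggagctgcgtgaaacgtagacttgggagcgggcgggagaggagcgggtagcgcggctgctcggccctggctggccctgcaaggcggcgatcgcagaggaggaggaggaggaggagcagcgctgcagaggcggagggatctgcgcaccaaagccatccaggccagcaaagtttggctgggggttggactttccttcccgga
Smad9: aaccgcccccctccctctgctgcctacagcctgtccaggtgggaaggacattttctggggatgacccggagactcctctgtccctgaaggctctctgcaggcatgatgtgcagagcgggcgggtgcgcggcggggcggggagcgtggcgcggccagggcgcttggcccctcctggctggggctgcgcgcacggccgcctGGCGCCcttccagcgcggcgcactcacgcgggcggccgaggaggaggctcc
The motifs searched on both strands were the CAGA box (CAGAC), the SMAD palindrome (GTCTAGAC) and a GC-rich motif (GGCGCC). Over the 250 upstream bases of all 32851 promoters in the RefSeq table, 42.2% held CAGAC, 0.167% held GTCTAGAC and 9.59% held GGCGCC. The Smad9 stretch held 1 GGCGCC, and the Smad1 and Smad3 stretches held none of these letters in this window. Their GC content was 63.6% for Smad1, 69.2% for Smad3 and 73.2% for Smad9, against a median of 52.4% over all promoters. The stretches of Smad5, whose mRNA was not called at any time, had 60% to 68.4% over 3 annotated starts, with 1 GGCGCC at a start and 1 CAGAC at another, and that of Smad6 had 66.8% and no match.

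Rnf111 matched the labels, with 14.5 to 15.1 FPKM in WT, 0.121 to 0.526 in null, 103 to 126 in rvWT and 56 to 62.1 in sim. Total FPKM ran from 397019 to 481970 per library, and read depth is unknown, so no counting interval can be given. Of 12 fibroblast markers 11 were in the table, and their summed level was 3926 to 4544 FPKM in WT, 4387 to 5983 in the set A null, 6960 to 7927 in rvWT, 6573 to 7255 in sim and 4739 to 4814 in the set B null. The fibroblast marker without a row was Pdgfra. The defining epithelial (Epcam, Cdh1), endothelial (Pecam1, Cdh5), blood (Ptprc), muscle (Myod1, Myog), neural (Sox2) and fat cell (Adipoq, Fabp4, Pparg) markers had no row in the table either. Of the others, the 3 epithelial markers in the table summed to 269 to 521 FPKM in WT, almost all of it Krt19, and to 3.44 to 15.4 elsewhere. The neural markers (3 of 4 in the table) summed to 46.8 to 79.8 FPKM in WT and 14.3 to 38.3 elsewhere. The 1 fat cell marker in the table, Lpl, lay at 72.1 to 150 FPKM in null, 26.7 to 54.1 in WT and 16.1 to 39.6 in rvWT and sim. Endothelial markers (3 of 5) summed to 6.45 to 13.5, blood markers (4 of 5) to 6.36 to 17.7 and muscle markers (3 of 5) to 13.8 to 27.5 FPKM over all libraries.

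Smad4 and Smad3 were the most abundant of the SMAD mRNAs and Smad9 by far the least. FPKM is per length of transcript, so the levels of the genes can be set side by side, with a limit for Smad2 and Smad5. Their values can be those of a single isoform, which would also bear on the ratios and shares given below. Mean level over the 16 libraries was 28.9 ± 5.04 FPKM (SD, n = 16) for Smad4, 24.5 ± 4.24 for Smad3, 17.1 ± 3.15 for Smad5, 10.7 ± 2.45 for Smad1, 10.4 ± 1.69 for Smad2 and 2.12 ± 2.05 for Smad9. Smad4 ranked first in 12 libraries and Smad3 in the other 4, so the order of this pair was not fixed, and Smad1 and Smad2 differed by less than their spread. Smad9 was the lowest of the 6 in 16 of 16 libraries. Against the whole table, 77.6% of genes had a mean below that of Smad4, 50.7% below that of Smad1 and 16.6% below that of Smad9.

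**Figure D1:**
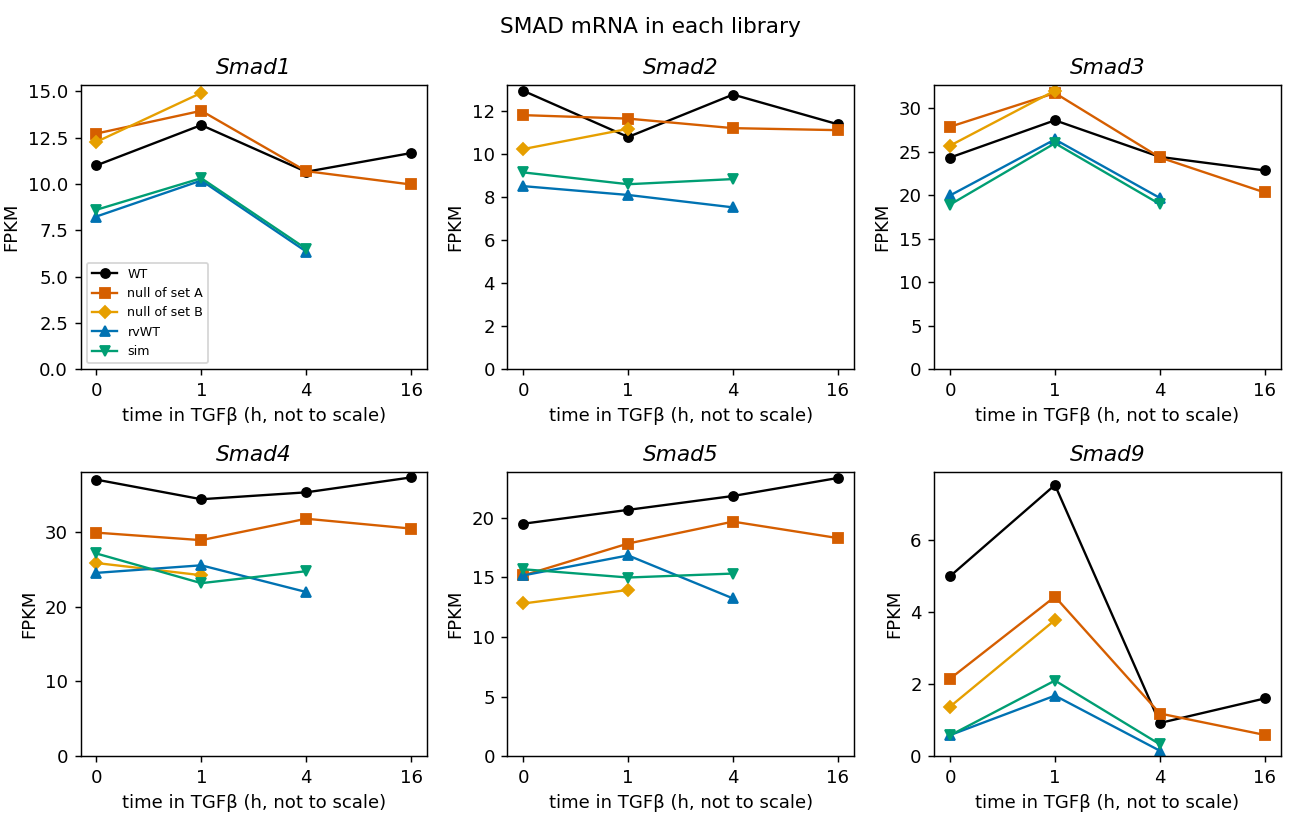
FPKM (vertical axis, from 0) of each of the 6 SMAD mRNAs against time in TGFβ (horizontal axis, h, not to scale), with 1 line per time series and 1 point per library. Smad3 and Smad9 peak at 1 h in every series, and Smad4 lies higher in WT (34.3 to 37.3 FPKM) than in the null of the same set (28.9 to 31.7).

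The receptor-activated SMADs of the TGFβ arm, Smad2 and Smad3, differed in how they moved. Smad3 mRNA encodes a SMAD that binds the CAGA box directly. It was at 24.4, 28.6, 24.4 and 22.9 FPKM in WT at 0, 1, 4 and 16 h. In the set A null it was at 27.9, 31.8, 24.4 and 20.3 FPKM. In set B it was at 20.0, 26.4 and 19.7 FPKM in rvWT at 0, 1 and 4 h, at 18.9, 26 and 19.0 in sim and at 25.7 and 32.0 in null at 0 and 1 h. The 1 h library was the highest of each series, at 1.14 to 1.37 times the 0 h value of the same series, although the 0 h values (18.9 to 27.9) and 1 h values (26 to 32.0) of different series overlapped. By 4 h Smad3 was back at 0.874 to 1.00 times its 0 h level.

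Smad2 mRNA, for the SMAD whose main isoform does not bind DNA by itself, was at 12.9, 10.8, 12.8 and 11.4 FPKM in WT at 0, 1, 4 and 16 h and at 11.8, 11.6, 11.2 and 11.1 FPKM in the set A null. In set B it was at 8.51, 8.10 and 7.53 FPKM in rvWT, at 9.15, 8.60 and 8.84 in sim, and at 10.2 and 11.2 in null. Every rvWT and sim library lay below both null libraries of set B, and WT and null overlapped in set A. At 1 h the value was lower than at 0 h in 4 of 5 series. The ratio of Smad3 to Smad2 FPKM was 1.88 to 2.51 at 0 h, 2.65 to 3.26 at 1 h, 1.91 to 2.62 at 4 h and 1.83 to 2.01 at 16 h. It was highest at 1 h in each series.

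Of the BMP arm, Smad9 varied most and Smad5 least with time. Smad9 mRNA was at 4.99, 7.52, 0.921 and 1.60 FPKM in WT at 0, 1, 4 and 16 h and at 2.15, 4.42, 1.18 and 0.591 FPKM in the set A null. In set B it was at 0.585, 1.68 and 0.152 FPKM in rvWT, at 0.579, 2.10 and 0.331 in sim and at 1.37 and 3.78 in null. The 1 h level was 1.51 to 3.63 times the 0 h level of its series, and the 4 h level was 0.0905 to 0.268 times the 1 h level. At 1 h all 5 values (1.68 to 7.52) lay above all 4 values at 4 h (0.152 to 1.18).

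Smad1 mRNA was at 11, 13.2, 10.7 and 11.7 FPKM in WT and at 12.7, 14.0, 10.7 and 9.98 in the set A null. In set B it was at 8.25, 10.2 and 6.36 FPKM in rvWT, at 8.61, 10.3 and 6.51 in sim and at 12.3 and 14.9 in null. Like Smad3 it was highest at 1 h in each series, at 1.10 to 1.24 times the 0 h value, and it was at 0.624 to 0.809 times the 1 h value at 4 h. Its 4 h level was below 0 h in 4 of 4 series, and at 16 h it was at 1.06 times the 0 h level in WT and 0.784 times in null. The rvWT and sim libraries did not overlap the set B null libraries.

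Smad5 mRNA was at 19.5, 20.7, 21.8 and 23.3 FPKM in WT and at 15.2, 17.8, 19.7 and 18.3 in the set A null. In set B it was at 15.2, 16.8 and 13.2 FPKM in rvWT, at 15.7, 15.0 and 15.3 in sim and at 12.8 and 13.9 in null. Levels at 4 h were above 0 h in both series of set A and below 0 h in both series of set B that had a 4 h library. The ratio of Smad5 to Smad1 FPKM ran from 0.935 in the set B null at 1 h to 2.35 in sim at 4 h.

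Smad4, the common partner of both arms, was at 37.0, 34.3, 35.3 and 37.3 FPKM in WT and at 29.9, 28.9, 31.7 and 30.4 in the set A null. In set B it was at 24.5, 25.5 and 21.9 FPKM in rvWT, at 27.1, 23.1 and 24.7 in sim and at 25.8 and 24.2 in null. WT did not overlap the null of its own set, and the 3 series of set B overlapped each other. The null of set B lay below the null of set A at both shared times, at 0.864 times its level at 0 h and 0.838 times at 1 h, and Smad5 likewise at 0.845 and 0.782 times, so the lines are tested only within a set.

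The lines were compared with limma on log2(FPKM + 1), with time as a block and p-values adjusted by the Benjamini-Hochberg method over all genes tested; a gene was called at an adjusted p below 0.05. For a gene as low as Smad9 this scale makes a change look smaller than it is in FPKM. The design text calls the 16 samples independent without saying how many cultures stand behind them. The p-values reflect only how these libraries scatter, a scatter that may be technical. With 1 library per line and time in a set, it also includes any difference in time course between the lines.

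Smad4 and Smad5 mRNA were higher in WT than in null. With 67.5% of 10976 genes called (37.4% higher, 30.1% lower), 2 of 6 SMADs were higher and none lower. As deposited, 4105 genes were higher and 3306 lower, and with median-ratio scaling 3639 were higher and 3619 lower. Smad4 differed by 0.24 ± 0.05 (SE; limma adjusted p = 0.00629) and was higher in WT at 4 of 4 times, by 1.11 to 1.24 times in FPKM. Smad5 differed by 0.26 ± 0.06 (adjusted p = 0.0104), also at 4 of 4 times, by 1.11 to 1.29 times. A share of 2 in 6 lies below that of all genes. Both calls stayed past the threshold without each of the 8 libraries in turn.

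Smad9 was higher in WT at 0, 1 and 16 h, by 2.32, 1.70 and 2.71 times in FPKM, and at 0.778 times the null level at 4 h. Its difference of 0.53 ± 0.19 missed the threshold (limma adjusted p = 0.0578). Without the 4 h library of either line, the time that went the other way, it was 0.76 (adjusted p = 0.0056). Without a library of any other time it was smaller, at 0.39 to 0.48 (adjusted p = 0.146 to 0.184). The other 3 were not called. The 95% interval of the difference was -0.21 to 0.18 for Smad1, -0.11 to 0.22 for Smad2 and -0.22 to 0.14 for Smad3. Of 3 epithelial markers tested, 1 was called higher in WT (Krt19, almost all of the higher sum given above) and 2 lower. The 3 neural markers were all called higher. Of 11 fibroblast markers, 1 was called higher and 9 lower, where 37.4% and 30.1% of all genes were. The part of these markers in the SMAD differences was not tested.

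In the null cells that received wild-type Arkadia, 4 of 6 SMAD mRNAs were lower than in null: Smad1, Smad2, Smad3 and Smad9. Background for this comparison was 38.6% of 10958 genes called (16% higher, 22.6% lower). As deposited, 1756 genes were higher and 2474 lower, and with median-ratio scaling 2102 were higher and 2108 lower. The 6 SMADs had a median difference of -0.33 against -0.03 over all genes. The set B null had no 4 h library, so null is matched to the infected lines at 0 and 1 h only, and the 4 h libraries enter the fit through the difference between sim and rvWT. Smad1 differed by -0.51 ± 0.05 (limma adjusted p = 0.00134), at 0.672 and 0.683 times the null FPKM at 0 and 1 h. Smad9 differed by -0.73 ± 0.11 (adjusted p = 0.00519), at 0.426 and 0.445 times. Smad2 differed by -0.35 ± 0.07 (adjusted p = 0.0166) and Smad3 by -0.31 ± 0.05 (adjusted p = 0.00813). Smad4 (-0.03 ± 0.08, adjusted p = 0.822) and Smad5 (0.20 ± 0.09, adjusted p = 0.137) were not called, with 95% intervals of -0.23 to 0.18 and -0.03 to 0.42. The call of Smad2 was lost without the 1 h library of rvWT (adjusted p = 0.0752) or of null (-0.26, adjusted p = 0.133), and that of Smad3 without the 0 h library of rvWT (0.0514) or of null (0.0861).

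In the null cells that received the Arksim mutant, 3 of 6 SMAD mRNAs were lower than in null. Of all genes 34.7% were called (13.9% higher, 20.8% lower). As deposited, 1528 genes were higher and 2279 lower, and with median-ratio scaling 1816 were higher and 1991 lower. This contrast shares the null libraries with the one before, so the pair is not independent. Smad1 differed by -0.48 ± 0.05 (limma adjusted p = 0.00195), Smad3 by -0.36 ± 0.05 (adjusted p = 0.0056) and Smad9 by -0.59 ± 0.11 (adjusted p = 0.0116). Smad2 (-0.22 ± 0.07, adjusted p = 0.0669), Smad5 (0.23 ± 0.09, adjusted p = 0.105) and Smad4 (0.03 ± 0.08, adjusted p = 0.806) were not called. Without the 0 h null library Smad3 (adjusted p = 0.0677) and Smad9 (0.0616) were lost, and Smad9 was also lost without the 0 h library of sim (0.06). Without the 1 h null library Smad9 averaged below 1 FPKM in set B and was not tested against null in sim or rvWT. The fibroblast marker sum was higher in rvWT and sim than in the set B null and Lpl was lower, as given above, and their part in these differences was not tested.

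The lines with wild-type and mutant Arkadia did not differ past the threshold in any SMAD mRNA. They also differed in Rnf111 level, at 103 to 126 FPKM in rvWT and 56 to 62.1 in sim. The mutation therefore cannot be told apart from the amount of Arkadia mRNA. In limma none of the 6 was called, where 0.493% of all genes were called, and 0 of 6 had an unadjusted p below 0.05, where 16.6% of all genes had one. The 95% intervals of sim minus rvWT were -0.07 to 0.14 for Smad1, -0.03 to 0.28 for Smad2, -0.16 to 0.06 for Smad3, -0.12 to 0.23 for Smad4, -0.16 to 0.22 for Smad5 and -0.09 to 0.37 for Smad9. Smad2 came nearest, with 0.13 ± 0.06 (adjusted p = 0.377) and a higher level in sim at 3 of 3 times.

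**Figure D2:**
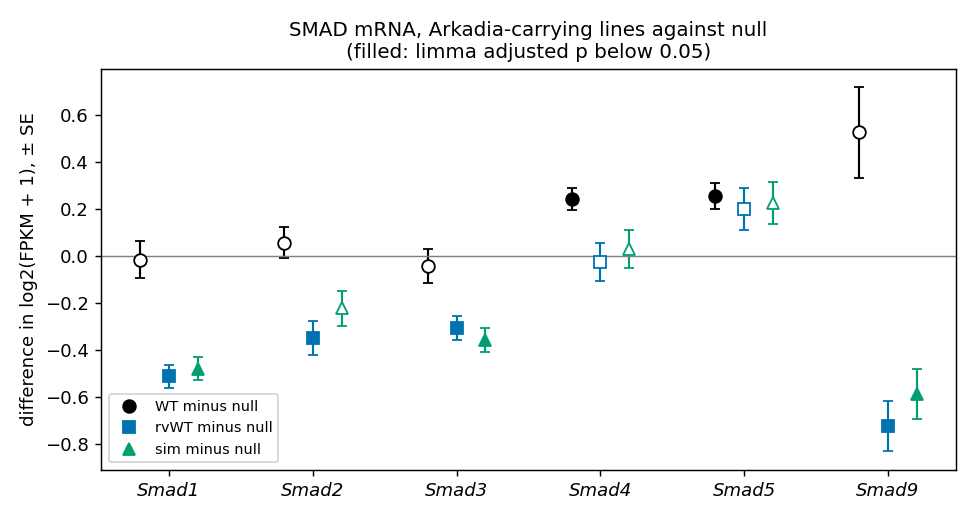
Difference in log2(FPKM + 1) from null (vertical axis) for each SMAD mRNA (horizontal axis) in WT (set A), rvWT and sim (both set B); bars are ± SE of the limma fit and filled symbols passed an adjusted p of 0.05. Smad4 and Smad5 are filled in WT alone, and Smad1, Smad3 and Smad9 are filled below 0 in both infected lines.

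The side-by-side values differ between the sets. Smad1 differed from null by -0.02 in WT, -0.51 in rvWT and -0.48 in sim, and Smad4 by 0.24, -0.03 and 0.03. Smad5 differed by 0.26, 0.20 and 0.23, of which only the WT value passed. WT minus null uses set A and the other contrasts use set B, and whether the contrasts differ from each other was not tested.

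Smad3 and Smad9 mRNA rose within 1 h of TGFβ, and 5.96% of 11045 genes were called at that time (3.95% higher, 2.01% lower). All 16 libraries entered this fit, blocked by the 5 time series. Smad3 rose by 0.31 ± 0.05 (limma adjusted p = 0.00739) and Smad9 by 0.81 ± 0.17 (adjusted p = 0.0173), each higher in 5 of 5 series. Smad1 was higher in 5 of 5 series as well, with a difference of 0.23 ± 0.06 that missed the threshold (adjusted p = 0.0722) and passed it with median-ratio scaling of the libraries (0.26, adjusted p = 0.0251). Smad2 (-0.06 ± 0.05, interval -0.18 to 0.06), Smad4 (-0.08 ± 0.05, interval -0.19 to 0.03) and Smad5 (0.10 ± 0.07, interval -0.06 to 0.26) were not called, with 95% intervals given. In set B alone the 1 h difference was 0.38 for Smad3 (adjusted p = 0.0138), 0.91 for Smad9 (0.00901) and 0.26 for Smad1 (0.0397), and in set A alone it was 0.20, 0.65 and 0.18 with adjusted p of 0.787, 0.691 and 0.845, where 12 genes in all were called. The call of Smad9 was lost without any of 5 libraries: WT at 1 h (adjusted p = 0.0559), rvWT at 0 h (0.0589), sim at 0 h (0.0644) and the set B null at 0 h (0.0724) or 1 h (0.0727).

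At 4 h Smad9 and Smad1 were lower than before treatment, 2 of 6 where 27.1% of all genes were lower, 11.9% higher and 39% called either way. Smad9 fell by 0.69 ± 0.18 on the log2 scale (limma adjusted p = 0.0148), to 0.185 to 0.572 times its 0 h FPKM, in 4 of 4 series. Smad1 fell by 0.24 ± 0.07 (adjusted p = 0.0253), to 0.756 to 0.969 times, in 4 of 4 series. As deposited, 1317 genes were higher and 2990 lower at 4 h, and with median-ratio scaling 1899 were higher and 1815 lower, where Smad1 stood at -0.16 (adjusted p = 0.0692). In the fit over all series Smad2, Smad3, Smad4 and Smad5 lay within -0.07 to 0.08 of 0 h and were not called. Single series ran from -0.16 to -0.02 for Smad2 and from -0.19 to 0.004 for Smad3. They ran from -0.15 to 0.08 for Smad4 and from -0.18 to 0.36 for Smad5. In set A alone Smad9 was at -1.08 (adjusted p = 0.169) and Smad1 at -0.14 (0.527), and in set B alone at -0.33 (0.0608) and -0.34 (0.00706). Without the WT 4 h library Smad9 stood at -0.43 (adjusted p = 0.00969). Smad1 lost its call without the 0 h library of the set A null (adjusted p = 0.0688), of rvWT (0.0661) or of sim (0.0691), and without the 4 h library of rvWT (0.0861) or sim (0.0953).

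From 1 h to 4 h, Smad1, Smad3 and Smad9 mRNA fell together in 4 of 4 series. This contrast was added after the values had been seen, and 22.2% of genes were called in it (8.11% higher, 14.1% lower; 896 and 1557 genes as deposited, 1199 and 1150 with median-ratio scaling). Smad9 fell by 1.5 ± 0.18 (limma adjusted p = 0.000616), Smad1 by 0.46 ± 0.07 (adjusted p = 0.00192) and Smad3 by 0.36 ± 0.06 (adjusted p = 0.00319). In set B alone the values were -1.24, -0.60 and -0.40 (adjusted p = 0.00315, 0.00303 and 0.00795), and in set A alone -1.73, -0.32 and -0.30, none of them called (adjusted p = 0.149, 0.402 and 0.402). All 3 calls stayed past the threshold without each of the 16 libraries in turn. In the fit over all series Smad2, Smad4 and Smad5 lay within -0.02 to 0.01, but single series moved both ways. They ran from -0.09 to 0.22 for Smad2, from -0.21 to 0.13 for Smad4 and from -0.33 to 0.13 for Smad5.

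At 16 h, which only WT and the set A null reached, Smad9 was the 1 SMAD called, with 19.4% of genes called (6.84% higher, 12.5% lower; 755 and 1384 genes as deposited, 1047 and 946 with median-ratio scaling). It fell by 0.91 ± 0.24 (limma adjusted p = 0.0243), to 0.321 times its 0 h FPKM in WT and 0.275 times in null. Smad3 was lower in both series, with -0.21 ± 0.08 (adjusted p = 0.0793). The spread in this contrast comes mostly from the other times, and set A alone gave -1.09 for Smad9 (adjusted p = 0.113). The call was lost without the 0 h library of WT (adjusted p = 0.0545) or null (0.061) or without the null 16 h library (-0.79, adjusted p = 0.246).

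**Figure D3:**
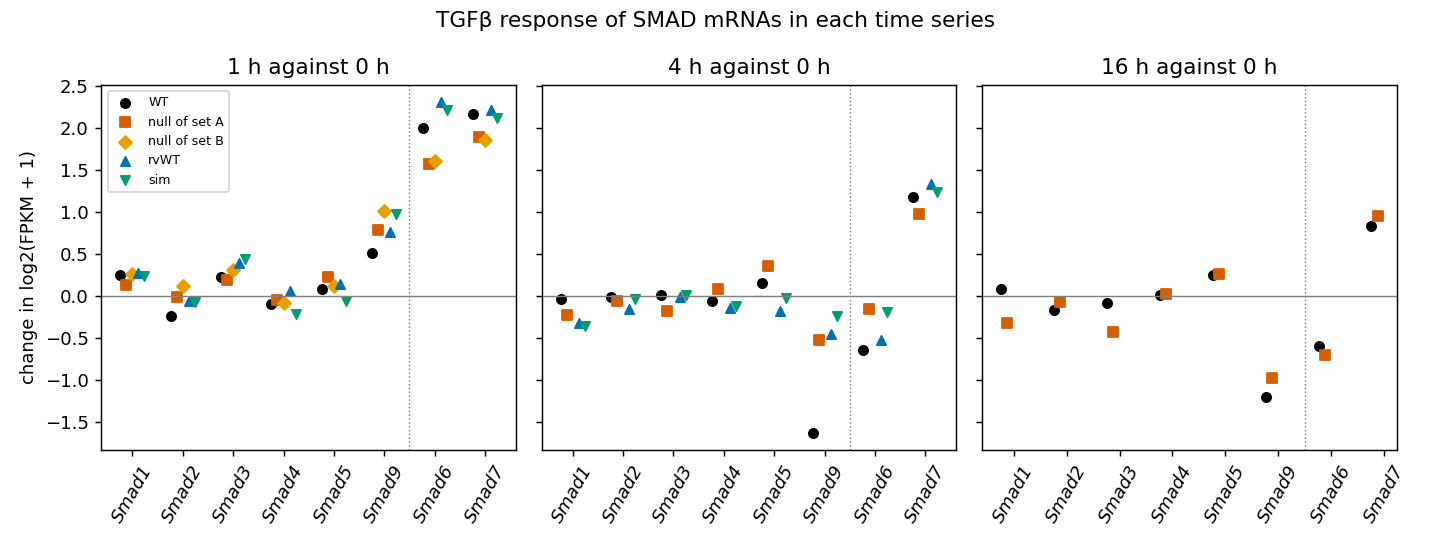
Change in log2(FPKM + 1) from 0 h (vertical axis) of the 6 SMAD mRNAs and, right of the dotted line, the inhibitory SMADs (horizontal axis) at 1, 4 and 16 h, with 1 point per time series. Smad1, Smad3 and Smad9 lie above 0 in 5 of 5 series at 1 h, below the rise of Smad6 and Smad7, and Smad9 lies below 0 in every series at 4 h and 16 h.

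Whether the response depended on Arkadia was tested as a difference between responses, with WT, rvWT and sim against both null series at 1 h. At 4 h the null response came from set A only, so rvWT and sim were compared with it across sets. At 16 h WT stood against the set A null, with 1 series each and the spread taken from the other times. No SMAD was called in limma at 1, 4 or 16 h, where 0.00905%, 0.0362% and 1.62% of all genes were called. An unadjusted p below 0.05 was found for 0 of 6 SMADs at 1 h, 0 of 6 at 4 h and 1 of 6 at 16 h, and for 2.73%, 11% and 16.7% of all genes, so the count at 16 h is no larger than the background. That 1 was Smad3, which was at 0.939 times its 0 h FPKM in WT and at 0.729 times in null at 16 h, a difference of 0.36 ± 0.12 (adjusted p = 0.21). The 95% intervals at 1 h were -0.10 to 0.31 for Smad3, -0.23 to 0.34 for Smad1 and -1.06 to 0.76 for Smad9, so for Smad9 differences of about the size of the response itself were not detectable.

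The summed FPKM of the 6 SMADs was 106 to 115 in WT, 90.7 to 108 in the set A null, 88.2 to 100.04 in the set B null, 68.9 to 88.8 in rvWT and 74.7 to 85.1 in sim. At matched times the sum was higher in WT than in the set A null at 0, 1, 4 and 16 h. At 0 and 1 h it was 77.0 and 88.8 in rvWT and 80.1 and 85.1 in sim, below the 88.2 and 100.04 of the set B null. Differences in the sum were not tested. Smad4 made up 24.2% to 34.5% of this sum, Smad3 21.2% to 32.0%, Smad5 13.9% to 21.6%, Smad1 8.71% to 14.9%, Smad2 9.13% to 12.2% and Smad9 0.221% to 6.53%. The BMP arm (Smad1, Smad5 and Smad9) stood at 0.725 to 1.07 times the TGFβ arm (Smad2 and Smad3), with the highest value in WT at 16 h.

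**Figure D4:**
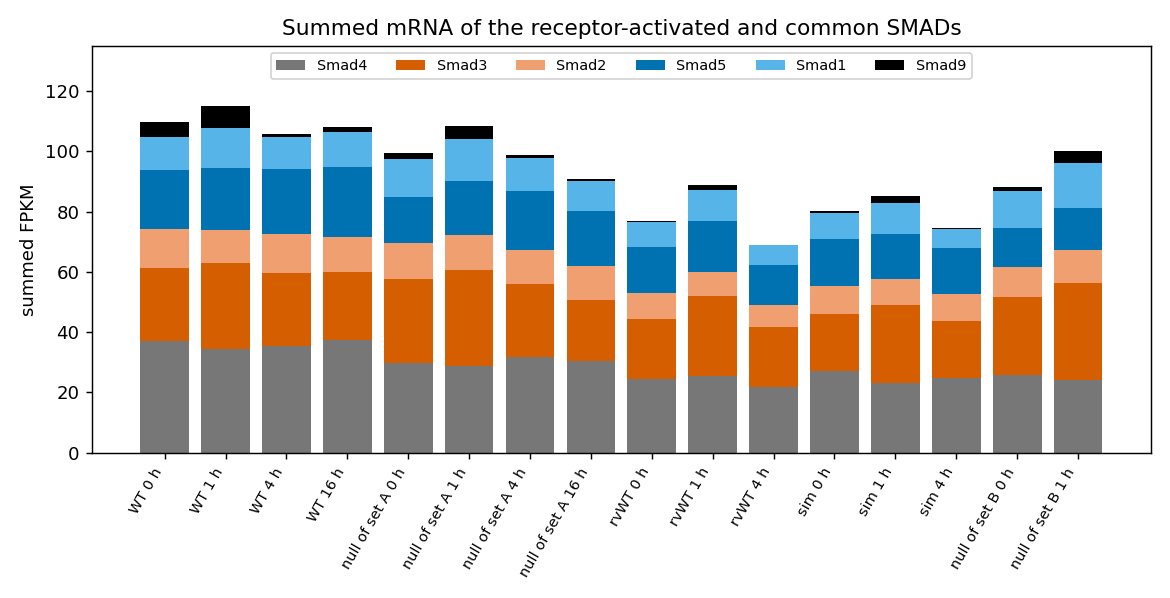
Summed FPKM (vertical axis, from 0) of the 6 SMAD mRNAs in each of the 16 libraries (horizontal axis), with 1 colour per gene. In set A the WT bars reach 106 to 115 FPKM and the null bars 90.7 to 108, and Smad9 is the thinnest layer in every bar.

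The inhibitory SMADs, which block receptors and the receptor-activated SMADs, showed a larger rise at 1 h than any of the 6 genes. At 0 h Smad7 was at 4.05 to 8.21 FPKM and at 1 h at 20.8 to 40.1, a rise of 2.04 ± 0.07 (limma adjusted p = 9.44e-08). It stayed above 0 h at 4 h (1.15, adjusted p = 1.11e-05) and 16 h (0.92, adjusted p = 0.000212). Smad6, an inhibitor mainly of the BMP arm, went from 6.98 to 13.8 FPKM at 0 h to 26 to 43.8 at 1 h, a rise of 1.94 ± 0.14 (adjusted p = 2.54e-05). At 4 h Smad6 was at 4.53 to 7.11 FPKM and had fallen by 0.43 ± 0.15 against 0 h (adjusted p = 0.0447), a call that was lost with median-ratio scaling. Like Smad1, Smad3 and Smad9, both were highest at 1 h and fell from 1 h to 4 h in 4 of 4 series. Smad6 fell by 2.37 ± 0.15 (limma adjusted p = 2.89e-05), to 0.117 to 0.273 times its 1 h FPKM. In FPKM Smad9 fell about as far, to 0.0905 to 0.268 times. Smad7 fell by 0.89 ± 0.07 (adjusted p = 8.44e-05), to 0.495 to 0.526 times its 1 h FPKM.

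Target genes of the 2 arms, from lists of textbook targets, were read beside them. These lists and those below were chosen with earlier results of these data known, so their counts are descriptions and no independent test. Of all genes, 3.95% were higher at 1 h, and 11.9% were higher and 27.1% lower at 4 h. At 16 h 6.84% of all genes were higher and 12.5% lower. Of 7 tested targets of SMAD2 and SMAD3, 6 were higher at 1 h (median 1.82, against -0.03 over all genes), 7 at 4 h (median 1.59, against -0.08) and 7 at 16 h (median 1.54, against -0.07). Pmepa1, a feedback inhibitor that holds receptor-activated SMADs away from the receptor, rose by 1.58 ± 0.07 at 1 h (limma adjusted p = 1.14e-06) and 2.31 ± 0.08 at 4 h (adjusted p = 3.35e-07). Of 5 targets of SMAD1 and SMAD5, 4 were higher at 1 h (median 1.3) and 4 lower at 4 h (median -1.35, 3 of them called with median-ratio scaling), and 2 were lower at 16 h (median -1.09). Atoh8, a transcription factor gene of that list, rose by 1.77 ± 0.19 at 1 h (adjusted p = 0.000315) and fell by 1.82 ± 0.20 at 4 h (adjusted p = 0.000219). Id2, which encodes an inhibitor of basic helix-loop-helix factors, fell by 2.28 ± 0.34 at 4 h (adjusted p = 0.000893). The SMAD1 and SMAD5 target list contains Smad6, and the SMAD2 and SMAD3 list contains Smad7, Skil and Tgif1, which stand in other lists too.

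In the line comparisons, 4 of the 7 targets of SMAD2 and SMAD3 were higher and none lower than in null in WT (median 0.51, against 0.07 over all genes), in rvWT (median 0.50, against -0.03) and in sim (median 0.48, against -0.02), where 37.4%, 16% and 13.9% of all genes were higher. Tgif1 was higher by 0.95 ± 0.09 in rvWT (limma adjusted p = 0.00105) and 0.72 ± 0.09 in sim (adjusted p = 0.00301), and Pmepa1 by 1.33 ± 0.08 in WT (adjusted p = 0.000153). Of the 5 SMAD1 and SMAD5 targets, 1 was higher in WT (Atoh8, 1.32 ± 0.19, adjusted p = 0.0021) and 1 lower in rvWT and in sim (Id1, -0.74 ± 0.18 and -0.71 ± 0.18, adjusted p = 0.0278 and 0.0345), where 22.6% and 20.8% of all genes were lower. Smad7 was higher in WT than in null (0.51 ± 0.08, adjusted p = 0.00304), and neither inhibitory SMAD was called in rvWT or sim. Because the target lists were chosen with earlier results of these data known, these counts too are descriptions only.

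Of 13 receptor genes 9 were tested, and none was called at 1 h (median 0.01). At 4 h, where 11.9% of all genes were higher and 27.1% lower, 2 were higher and 4 lower (median -0.25), or 2 and 3 with median-ratio scaling. Tgfbr2, the type II TGFβ receptor that binds the ligand first, fell by 0.69 ± 0.09 (limma adjusted p = 0.000394), and Bmpr2, the type II BMP receptor, rose by 0.73 ± 0.12 (adjusted p = 0.00179). At 16 h 2 were higher and 2 lower, where 6.84% of all genes were higher and 12.5% lower. Against null, 2 were higher and 5 lower in WT, 1 and 3 in rvWT, and 2 and 2 in sim, near the 67.5%, 38.6% and 34.7% of all genes called (1 and 5 in WT and 3 and 2 in sim with median-ratio scaling). Tgfbr3, the co-receptor betaglycan, was lower in WT (-2.0 ± 0.21, adjusted p = 0.000709), in rvWT (-0.78 ± 0.06, adjusted p = 0.000733) and in sim (-0.65 ± 0.06, adjusted p = 0.00156).

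Proteins that bind, modify or work with the SMADs were read from 5 further lists, against a background of 3.95% of all genes higher and 2.01% lower at 1 h and of 11.9% higher and 27.1% lower at 4 h. Of 9 DNA-binding partners tested, 5 were higher at 1 h and none lower, and 6 were higher and 1 lower at 4 h. Junb, an AP-1 factor, rose by 2.52 ± 0.15 at 1 h (limma adjusted p = 5.75e-06) and Foxo1, a forkhead factor, by 0.82 ± 0.09 (adjusted p = 0.000386). Of 8 co-repressors and co-activators, 3 were higher at 1 h, among them Tgif1 (1.12 ± 0.12, adjusted p = 0.000276) and Ski (0.79 ± 0.09, adjusted p = 0.00043), which encode repressors of SMAD transcription. At 4 h 2 of the 8 were higher and 3 lower (2 and 1 with median-ratio scaling).

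Of 10 ubiquitin ligases and deubiquitinases of SMADs, none was called at 1 h, and 3 were higher and 3 lower at 4 h (3 and 2 with median-ratio scaling), where Smurf1, a ligase for SMAD1 and SMAD5, rose by 0.93 ± 0.17 (limma adjusted p = 0.00303). Of 4 phosphatases, none was called at 1 h and 2 were lower at 4 h, among them Ctdspl (-0.43 ± 0.06, adjusted p = 0.000445). Of 7 anchors and adaptors, 1 was higher at 1 h, Lemd3 (0.38 ± 0.06, adjusted p = 0.005), whose product is a protein of the inner nuclear membrane that binds receptor-activated SMADs, and 2 were lower at 4 h. The 4 h counts of these 3 lists are set against 11.9% of all genes higher and 27.1% lower, and the 2 of 7 adaptors and 3 of 10 enzymes lower are near it. Against null, members of these lists with the smallest p included the phosphatase gene Ctdsp2 (-1.44 ± 0.09, adjusted p = 0.000165) and the ubiquitin ligase gene Wwp1 (-1.09 ± 0.06, adjusted p = 0.000112) in WT, and Dab2, an endocytic adaptor, in rvWT (-1.79 ± 0.06, adjusted p = 5.86e-05) and sim (-1.49 ± 0.06, adjusted p = 0.000133).

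Across the 16 libraries the 6 genes fell into patterns, given as descriptions because the libraries share lines, sets and times. Pearson's r on log2(FPKM + 1) was 0.88 for Smad1 with Smad3, 0.82 for Smad3 with Smad9 and 0.80 for Smad1 with Smad9. It was 0.89 for Smad4 with Smad5 and 0.81 for Smad2 with Smad4, and 0.08 for Smad3 with Smad5. Among 11045 genes, those with the most similar course to each SMAD over the 16 libraries included 8430427H17Rik (r = 0.95), Spen and Phf15 for Smad1, Suco (0.96), Mpp5 and Tgoln1 for Smad2, and Cdc42ep1 (0.92), Foxo6 and Bnc1 for Smad3. For Smad4 they included Pdcl (0.99) and Vcpip1, for Smad5 Cbfb (0.95) and Cand1, and for Smad9 Ubl3 (0.90), Ypel2 and Edn2.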

How the data were processed

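Poly(A) RNA of 16 MEF libraries was sequenced from strand-specific kits, per the labels' protocols. The authors deposited FPKM values per gene. STAR 2.3.0e, Cufflinks 2.2.1, CASAVA 1.8.2, SAMtools and build mm9 are listed, per the submitters' processing notes. The gene annotation and Cufflinks settings are not given here. Values were analysed as log2(FPKM + 1) for genes that averaged 1 FPKM or more in a fit, with limma-trend (limma 3.58.1, R 4.3.3) and Benjamini-Hochberg adjustment. All 6 SMADs passed this filter in every fit, except Smad9 in set B without the null 1 h library, where it had no value. Line contrasts used 1 set with time as a factor, and time contrasts used all 16 libraries with the 5 series as a block. The scripts were checked on simulated data. Named were the 6 members, Rnf111, up to 2 genes of each list with the smallest p in a comparison, and the 3 genes most like each member. Members, lists and this rule were chosen with earlier results of these data known; the 4 h against 1 h contrast was added after values had been seen. Alternatives were pseudocounts of 0.1 and 5, no filter or a minimum of 5 FPKM, median-ratio scaling, either set by itself and leaving out single libraries. Promoter bases were read from RefSeq. Only the stretches of Smad1, Smad3 and Smad9 are printed, and 3 genes that the rule names are not reported here.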

Additional observations from a re-analysis of the deposited data

How the results depend on the processing

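Of 292 alternative values for the 17 called SMAD differences, 259 kept direction and call, 33 kept direction and missed the threshold and 0 reversed; of 912 values for the 49 differences not called, 844 were unchanged in call and direction, 9 passed and 59 changed sign. The cause of these changes was not tested. Limits are the single library per line and time, the unknown depth and the low level of Smad9.

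With median-ratio scaling the sign turned for differences that were not called: Smad4 in rvWT minus null (0.021), Smad2 (0.024), Smad3 (0.029) and Smad4 (0.013) at 4 h, Smad4 at 16 h (0.061) and Smad5 from 1 to 4 h (0.024). The difference in response of Smad9 turned to 0.018 at 1 h with a pseudocount of 0.1 and to -0.12 at 16 h with a pseudocount of 5. With set A alone the genes called were 12 at 1 h, 16 at 4 h, 245 at 16 h and 9 from 1 to 4 h, with 0 SMADs called in each, and Smad4 turned to 0.0092 at 4 h and 0.018 at 16 h and Smad5 to 0.10 from 1 to 4 h. With set B alone 1 SMAD was called at 4 h, Smad5 turned to -0.10 at 4 h, and Smad2 (-0.061) and Smad4 (-0.057) turned from 1 to 4 h. The SMADs called at 4 h were 1 with a pseudocount of 5, a minimum of 5 FPKM or median-ratio scaling; at 16 h they were 0 with a pseudocount of 5 or a minimum of 5 FPKM, and at 1 h 1 with that minimum, which removes Smad9 from the test. With a pseudocount of 5 Smad9 missed the threshold at 4 h (adjusted p = 0.0539) and 16 h (0.0547), and with 0.1 in sim minus null (0.0563).

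Without 1 library at a time, the genes called ran from 1946 (without the set B null 0 h) to 4249 in rvWT minus null, from 1581 (same library) to 3854 in sim minus null and from 1 (without sim 0 h) to 10 in sim minus rvWT. They ran from 400 (without the set B null 1 h) to 815 at 1 h, from 2658 (without sim 4 h) to 4779 at 4 h, from 640 (without null 16 h) to 3026 at 16 h and from 1105 (without sim 4 h) to 3166 from 1 to 4 h. For the difference in response they ran from 1 to 4 at 1 h, from 2 to 7 at 4 h and from 5 (without the set A null 0 h) to 708 (without WT 4 h) at 16 h. The SMADs called ran from 2 to 4 in rvWT minus null, from 1 to 4 in sim minus null, from 1 to 3 at 1 h, from 1 to 2 at 4 h and from 0 to 2 at 16 h; the libraries that ended a call are named in the report, and calls gained were Smad5 in sim minus null without sim 1 h (0.33, adjusted p = 0.0382), Smad1 at 1 h without WT 16 h (0.23, 0.0399) or null 16 h (0.23, 0.0397), and Smad3 at 16 h without WT 1 h (-0.23, 0.0486) or WT 16 h (-0.35, 0.0156).

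Differences not called that changed sign without a library ranged as follows. In WT minus null they ran from -0.091 to 0.042 for Smad1 and from -0.11 to 0.0068 for Smad3. Smad4 ran from -0.12 to 0.017 in rvWT minus null and from -0.011 to 0.12 in sim minus null, and Smad5 from -0.056 to 0.11 in sim minus rvWT. At 16 h Smad1 ran from -0.29 to 0.0091 and Smad4 from -0.039 to 0.018. From 1 to 4 h Smad2 ran from -0.045 to 0.041, Smad4 from -0.0299 to 0.066 and Smad5 from -0.097 to 0.0701. The difference in response ran from -0.012 to 0.13 for Smad1, from -0.10 to 0.043 for Smad4 and from -0.34 to 0.12 for Smad9 at 1 h. At 4 h it ran from -0.15 to 0.0065 for Smad1, from -0.14 to 0.021 for Smad2 and from -0.52 to 0.059 for Smad9. At 16 h it ran from -0.042 to 0.017 for Smad4, from -0.13 to 0.032 for Smad5 and from -0.15 to 0.55 for Smad9.

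Replicate numbers pair no libraries here, and the fits match them by time within a set or by time series instead.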
